A study of Mus musculus with 5 samples.

Results

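The genes described here are 8 genes that mark tissue-resident macrophages and take up or process material from their surroundings: Lyve1, Timd4, Folr2, Cd163, Mrc1, Vsig4, Cbr2 and F13a1. They were found by symbol, and all 8 matched exactly 1 of the 31053 features. Their raw counts of unique molecular identifiers (UMIs, counted RNA molecules) were read in 5 single-cell libraries of mouse heart. The libraries were made with the 10x Genomics 5-prime chemistry from digested, pooled hearts, after sorting of DRAQ5-positive, DAPI-negative cells, that is, nucleated cells with intact membranes. Control libraries 1 and 2 came from 4 mice of the genotype Ctla4+/+Pdcd1-/-. Disease libraries 3, 4 and 5 came from 10 mice of the genotype Ctla4+/-Pdcd1-/-, a model of the myocarditis that immune checkpoint inhibitors can cause. All groups therefore lack Pdcd1, and no wild-type heart was included. The labels of control library 2 and disease libraries 4 and 5 write Pdcd2-/- or Pdcd3-/-, and the dye runs from DRAQ5 to DRAQ9 over the libraries. The series' design text gives Pdcd1-/- and DRAQ5+ for every library, and its wording was followed. The age of the mice, the number of mice in each library and any batch are not given in the sources used here.

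Resident macrophages of the heart are seeded early in life and persist largely by local division, whereas macrophages that derive from blood monocytes carry the chemokine receptor Ccr2. Resident cells clear dying cells, proteins and matrix fragments, and several receptors for that task serve as their markers. Lyve1 binds hyaluronan and is also a classic gene of lymphatic endothelium. Timd4 binds phosphatidylserine on dying cells, Folr2 binds folate, and Cd163 takes up complexes of haemoglobin and haptoglobin. Mrc1, the mannose receptor, takes up glycoproteins, and Vsig4 is a receptor for complement fragments. Cbr2 is a carbonyl reductase, and F13a1 encodes the catalytic chain of the transglutaminase that cross-links fibrin and is also known as a gene of blood monocytes.

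The deposited libraries held 24991704 to 55053988 UMIs. Of 47319 barcodes, 37103 were kept after filters on UMIs, genes and mitochondrial share and after removal of 1209 doublets. A kept barcode with at least 3 UMIs over C1qa, C1qb and C1qc, the complement genes of macrophages, is called a C1q barcode below. There were 1819 and 525 C1q barcodes in control libraries 1 and 2, and 666, 2096 and 901 in disease libraries 3, 4 and 5, or 6007 in all. Any pair of libraries shared 86 to 161 barcode sequences. At least 3 of 11 other macrophage genes, among them Csf1r, Adgre1 and Cd68, were detected in 78.0 to 94.1% of the C1q barcodes of a library. The set is not pure: 43.6, 74.3, 61.1, 48.9 and 58.7% of C1q barcodes, in library order, met no marker gate of another lineage. In control library 1, the fibroblast gate was the best match for 35.2%, against 12.2 to 19.3% in the others. At least 3 fibroblast markers were detected in 42.9% there and in 13.1 to 25.4% in the others. With at least 10 C1q UMIs, 450 to 1464 barcodes remained per library, and at least 99.1% of them held 3 or more of the 11 macrophage genes. Calls of members that change in this stricter set are given with it.

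In the GRCm38 assembly Lyve1 lies on chromosome 7 from 110850607 to 110863239, and Folr2 on chromosome 7 from 101839988 to 101857194. Timd4 lies on chromosome 11 from 46810800 to 46844332, and Cbr2 on chromosome 11 from 120729489 to 120732114. Cd163 lies on chromosome 6 from 124304656 to 124330527, Mrc1 on chromosome 2 from 14229392 to 14332057, Vsig4 on chromosome X from 96247203 to 96293438, and F13a1 on chromosome 13 from 36867178 to 37050244. The 8 genes are protein-coding. RefSeq promoters (GRCm38.p6, 250 bases before to 50 after a start) were found for 7 of the 8 genes, in 9 windows, with no entry for Lyve1. They were searched on both strands for letters bound by 3 regulators of macrophages: GAGGAAGT for PU.1, TGCTGAC for MAF and the MEF2 motif. Matches were found in 3 windows, which are shown because all 8 members were lower in C1q barcodes in which Ccr2 was detected. Capitals mark the match, each sequence reads 5′ to 3′ along its gene, and the MAF letters lie on the opposite strand, so they print as GTCAGCA.
Timd4 promoter, chr11:46810549-46810848, plus strand: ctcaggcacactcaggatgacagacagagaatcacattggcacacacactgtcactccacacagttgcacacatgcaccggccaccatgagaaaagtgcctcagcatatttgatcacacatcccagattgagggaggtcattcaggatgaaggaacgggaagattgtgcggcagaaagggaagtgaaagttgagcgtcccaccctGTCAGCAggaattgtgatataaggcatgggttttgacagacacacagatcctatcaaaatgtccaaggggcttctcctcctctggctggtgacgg
Cbr2 promoter, chr11:120731972-120732271, minus strand: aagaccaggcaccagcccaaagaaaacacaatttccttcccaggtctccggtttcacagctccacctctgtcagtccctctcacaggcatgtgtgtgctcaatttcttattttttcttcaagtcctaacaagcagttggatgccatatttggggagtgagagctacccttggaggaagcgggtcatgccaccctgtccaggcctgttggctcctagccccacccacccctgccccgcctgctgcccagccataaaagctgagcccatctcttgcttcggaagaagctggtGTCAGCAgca
F13a1 promoter, chr13:37049164-37049463, minus strand: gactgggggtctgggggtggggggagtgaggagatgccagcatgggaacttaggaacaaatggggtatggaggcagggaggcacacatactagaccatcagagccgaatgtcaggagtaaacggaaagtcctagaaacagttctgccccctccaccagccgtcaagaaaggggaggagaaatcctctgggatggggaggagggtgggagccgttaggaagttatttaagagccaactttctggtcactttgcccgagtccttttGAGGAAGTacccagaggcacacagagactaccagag
The MAF letters begin 45 bases before the Timd4 start and 41 bases after the Cbr2 start, and the PU.1 letters begin 15 bases after the F13a1 start. Over all 32841 windows of this length, 4.67% held the MAF letters, 3.20% the PU.1 letters and 0.164% the MEF2 motif, which none of the 9 windows held. A match describes the letters and is not evidence of binding.

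Levels in C1q barcodes were compared between the genotypes to see whether the resident genes differ in the disease hearts. UMIs were summed per library and scaled to a common library total as CPM, with TMM factors that correct for a few dominant genes. Among the receptors, Lyve1 stood at 195 and 441 CPM in control libraries 1 and 2, against 478, 213 and 387 CPM in disease libraries 3, 4 and 5. The controls held Folr2 at 370 and 577 CPM, and disease held it at 751, 293 and 499 CPM. For Cd163 the values were 166 and 430 CPM in control hearts, then 401, 188 and 279 CPM in disease hearts. These 3 genes were low in control library 1 and disease library 4 and high in control library 2 and disease library 3, so the groups overlapped. Mrc1 gave 607 and 912 CPM for the controls against 953, 580 and 781 CPM for disease. The enzyme genes were low in the same 2 libraries: Cbr2 was at 703 and 1202 CPM against 1339, 545 and 973 CPM, and F13a1 at 676 and 1302 CPM against 1446, 559 and 1085 CPM. Vsig4, the rarest member, reached 10.3 and 14.3 CPM in control and 57.5, 8.97 and 16.8 CPM in disease libraries, and disease library 3 stood apart. Timd4 gave 56.6 and 90.8 CPM for the controls against 97.7, 91.4 and 94.9 CPM for disease, the only member whose groups did not overlap.

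**Figure D1:**
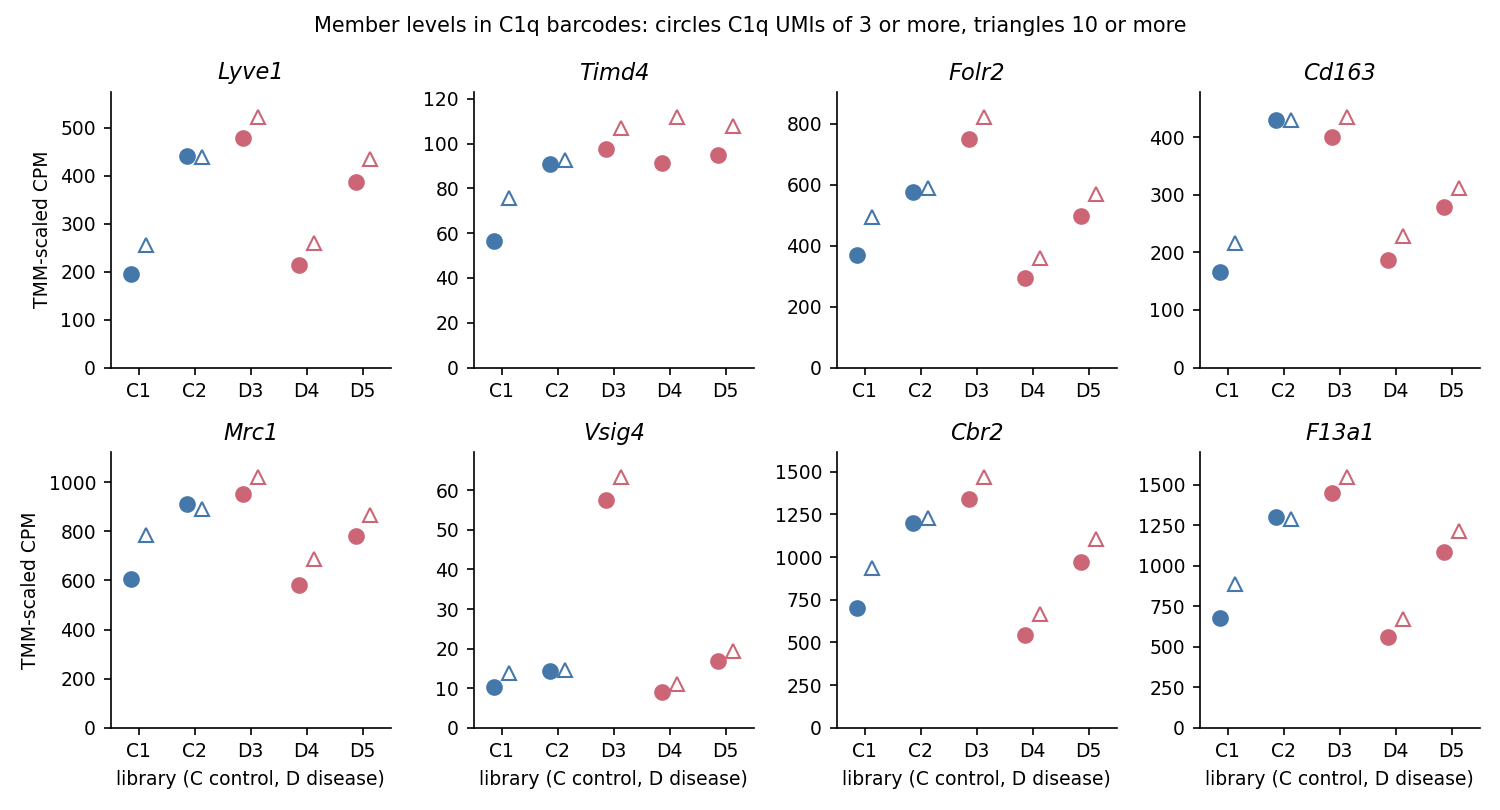
TMM-scaled CPM of the 8 members (y axes from 0) in C1q barcodes of each library (x axis; C control, D disease), with circles for at least 3 and open triangles for at least 10 C1q UMIs. Lyve1, Folr2, Cd163, Mrc1, Cbr2 and F13a1 are lower in control 1 and disease 4 than in the other 3 libraries in both sets, and Timd4 spans 56.6 to 97.7 CPM in the larger set.

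None of these differences passed the test. By edgeR's quasi-likelihood test with Benjamini-Hochberg adjustment over all genes, 0 of 8 members were called at an adjusted p under 0.05, and 0 had an unadjusted p under 0.05. DESeq2 also called 0. In the same comparison 725 of 12296 genes (5.9%) were called, 698 of them lower in disease. The log2 fold change, disease over control, was 1.17 for Vsig4 (SE 0.79), 0.37 for Timd4 (SE 0.24) and 0.18 for Lyve1 (SE 0.46), and it lay between -0.04 and 0.12 for the other 5. Adjusted p-values ran from 0.458 to 1.00. Groups failed to overlap for 37.7% of all genes and for 1 of the 8 members, Timd4. The first 300 bases of 7 members lay between the 7.77 and 19.8 percentiles of GC content over tested genes, and fold changes were lower at higher GC over all genes (Spearman's rho -0.381 over 12279 genes, as a description). Removal of that trend turned the sign of 4 members, Lyve1, Folr2, Mrc1 and F13a1, whose values then lay between -0.23 and -0.10. Summed over all kept barcodes, where fewer macrophages and less RNA per macrophage cannot be told apart, again 0 of 8 members were called (6.51% of all genes), with log2 fold changes of 0.10 to 1.04.

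Shares of C1q barcodes with a UMI were computed after each barcode was thinned to 2000 UMIs, which left out 71 to 303 shallower barcodes per library. Mrc1 was detected in 51.6 and 72.9% of control and 71.9, 46.8 and 61.4% of disease barcodes. F13a1 was found in 33.6 to 71.7%, Cbr2 in 29.4 to 68.9%, Folr2 in 24.4 to 50.4%, Cd163 in 18.9 to 42.2% and Lyve1 in 17.5 to 37.6%. The rarer phosphatidylserine receptor Timd4 was detected in 9.66% (95% Wilson interval 8.31 to 11.2) and 15.5% (12.4 to 19.3) of control barcodes. Its disease shares were 18.0% (15.1 to 21.3), 13.1% (11.6 to 14.7) and 15.2% (12.9 to 17.9). Vsig4 was detected in 1.23 to 5.88%. Without thinning, the ranges were 62.4 to 87.8% for Mrc1, 19.8 to 31.8% for Timd4 and 1.96 to 7.81% for Vsig4. T cell-marked barcodes, which should lack these genes, gave thinned shares of at most 3.50%, that of Mrc1. Their median depth was 3756 to 4857 UMIs, against 5179 to 6049 UMIs in C1q barcodes. An exact two-sided permutation of the 5 library labels gave an adjusted p of 1 for the share of each member (9 tests). With at least 10 C1q UMIs the mean Timd4 share was 3.56 percentage points higher in disease and the groups did not overlap, at p = 0.1 in the same exact permutation test (0.9 after adjustment). This design cannot give a p below 0.1, and intervals cover counting error only.

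Outside the C1q barcodes, Lyve1 was also found in lymphatic endothelium. Barcodes with at least 2 of 6 lymphatic markers (Prox1, Mmrn1, Flt4, Ccl21a, Reln and Pdpn) and an endothelial gene numbered 53, 21, 23, 12 and 26 in library order. They held Lyve1 at 680 and 2445 CPM in the controls and 1382, 2409 and 628 CPM in disease, before TMM scaling. In every library this was above the level in C1q barcodes, which ran from 194 to 499 CPM. Blood endothelial barcodes were at 8.20 to 11.4 CPM, T cell barcodes at 2.63 to 5.51 CPM and fibroblast barcodes at 2.06 to 5.01 CPM. The lymphatic gate itself was mixed. Barcodes with 3 or more markers, 7 to 29 per library, held Lyve1 at 1655 and 4486 CPM in the controls and 2793, 5757 and 2394 CPM in disease, and 65.5 to 90.0% of them had a UMI. Barcodes with exactly 2 markers held 0 to 109 CPM. This division was chosen after the values were seen.

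Against C1q barcodes of the same libraries, Lyve1 was higher in lymphatic-marked barcodes by 1.36 on the log2 scale (standard error, SE, 0.22; adjusted p 3.33e-06 by edgeR), in 5 of 5 libraries. After TMM scaling the gap was smallest in disease library 5, at 526 against 484 CPM. It was largest in disease library 4, at 1744 against 263 CPM. In this fit 33.3% of all genes were called. The other 7 members were lower and called, but most are nearly absent there and passed the low-count filter through the C1q barcodes, so their number is not read as a result. Mrc1, which lymphatic endothelium is known to express, was at 81.4, 44.6, 57.6, 16.2 and 13.0 CPM in lymphatic-marked barcodes, on 41 UMIs. Its log2 difference was -4.61 (SE 0.27; adjusted p 3.07e-17 by edgeR). Its range in T cell barcodes was 2.63 to 15.9 CPM, so the lowest lymphatic value falls inside that range and the next lies just above it. In barcodes with 3 or more lymphatic markers Mrc1 was at 166, 66.5, 118, 39.7 and 49.9 CPM, above that range in each library, on 1 to 21 UMIs. In disease libraries 4 and 5 it rested on 1 and 2 UMIs, and any count there would lie above that range. With exactly 2 markers Mrc1 was at 0 to 22.1 CPM. Timd4 and Vsig4 had 0 UMIs among 774462 lymphatic UMIs. Against the limit that 3 UMIs over all lymphatic barcodes would set, 3.87 CPM, they were at least 20.5-fold and at least 4.08-fold lower than in pooled C1q barcodes. Disease library 4 held only 12 lymphatic-marked barcodes, so no test between genotypes was made there.

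Timd4 was counted outside C1q barcodes too, with 60 UMIs in 86 dendritic-marked barcodes (0 to 114 CPM), against at most 2.75 CPM in T cell barcodes. In control library 1 its level there, 114 CPM on 36 UMIs in 20 barcodes, was above the 58.4 CPM of C1q barcodes, and in the other 4 libraries it was below. Dendritic-marked barcodes had median depths of 15155 to 17324 UMIs. Vsig4 was at most 0.470 CPM in T cell, B cell, blood endothelial and fibroblast barcodes, against 8.17 to 59.9 CPM in C1q barcodes.

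**Figure D2:**
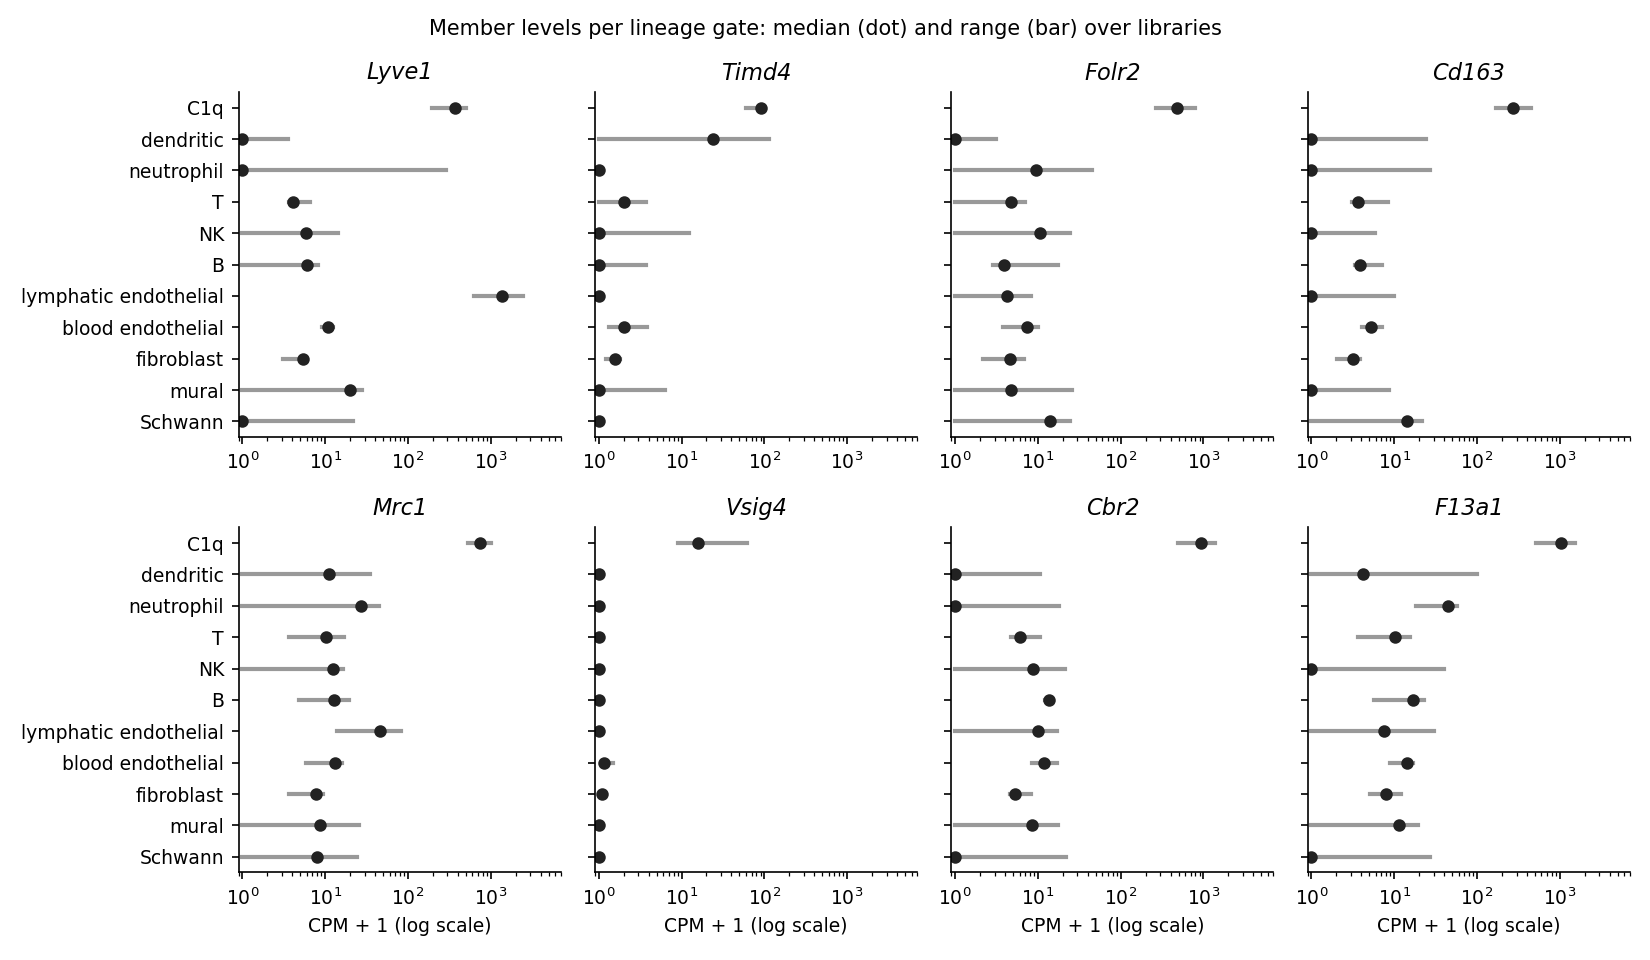
CPM plus 1 on a log axis for each member in barcodes of 11 lineage gates, with the median (dot) and range (bar) over the 5 libraries. Lyve1 has its highest median in the lymphatic gate, Timd4 is also seen in dendritic-marked barcodes, and every member but Lyve1 has its highest median among these gates in C1q barcodes.

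The members were found together in the same barcodes more often than independent detection would give. For each of 28 pairs, the number of C1q barcodes with both genes after thinning was divided by the number expected from the 2 shares in that library. The ratio was above 1 for 28 of 28 pairs in 5 of 5 libraries, with at least 3 and with at least 10 C1q UMIs. Pairs of other genes were not counted in this way, so whether such ratios are particular to the members was not tested. Lyve1 and Vsig4 gave the highest median, 2.61, on 74 shared barcodes where 30.0 were expected. Folr2 with Vsig4 followed at 2.33 and Timd4 with Vsig4 at 2.22, on 32 shared barcodes. Without barcodes that met another lineage's gate, Timd4 with Vsig4 had a median of 1.36 and was above 1 in 3 of 5 libraries, with a lowest ratio of 0.684, and the other 27 pairs were above 1 in all 5. With thinning to 1000 UMIs it was above 1 in 4 of 5 libraries, and in 3 of 5 in each of the stricter sets, and Mrc1 with Vsig4 was above 1 in 4 of 5 (lowest ratio 0.990) without barcodes that met another gate. Among commoner receptors, Lyve1 and Timd4 gave 2.03, on 381 shared barcodes, and Lyve1 and Folr2 1.98, on 955. In the control libraries, 78.8 and 74.1% of Lyve1 barcodes had Folr2, against 21.8 and 30.1% of barcodes without Lyve1. In disease these shares were 81.0, 71.3 and 76.0% against 33.6, 14.5 and 22.0%, and the ratio of this pair ran from 1.59 in control library 2 to 2.92 in disease library 4. The lowest medians were those of Mrc1, at 1.31 with Timd4 and 1.32 with F13a1. A ratio cannot exceed 1 divided by the larger of the 2 shares, so pairs with a common gene such as Mrc1 have a lower ceiling. In the set with at least 10 C1q UMIs the medians ran from 1.13 to 2.25, with the same pair at the top. Cells of a library are not replicates, and no p is given.

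**Figure D3:**
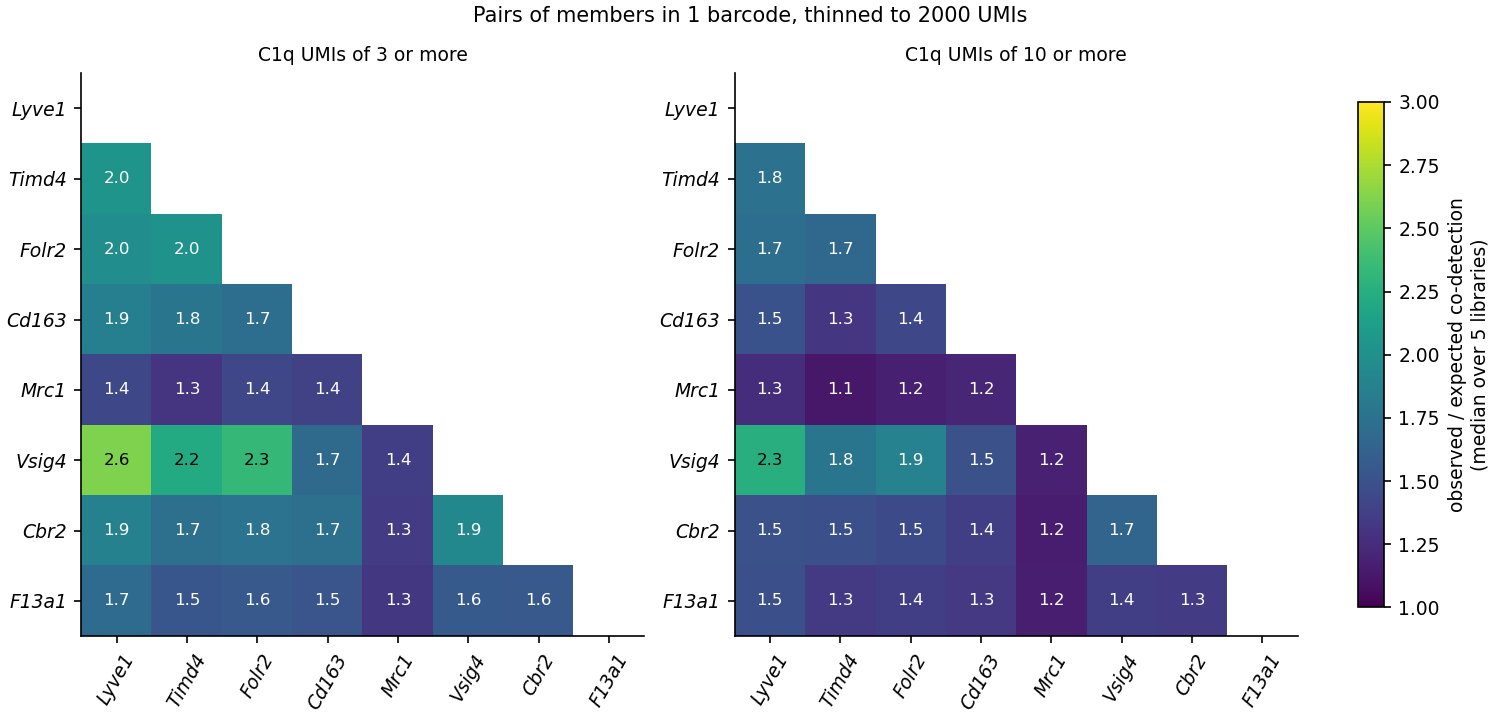
Observed over expected co-detection for 28 pairs of members after thinning to 2000 UMIs, as the median over 5 libraries (colour and number), for at least 3 (left) and at least 10 (right) C1q UMIs. Pairs with Vsig4 and Lyve1 reach 2.6, pairs with Mrc1 stay between 1.3 and 1.4 on the left, and every cell is above 1.

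At least 3 different members were present in 42.6 and 69.4% of the thinned C1q barcodes of the controls and in 64.4, 31.6 and 50.4% of those of disease. No member was seen in 34.2 and 9.05% of control barcodes and in 12.9, 40.7 and 24.0% of disease barcodes. The 8 members met in 10 barcodes, 6 of them in disease library 3. Barcodes with only 3 or 4 C1q UMIs made up 25.6% of the set in control library 1 and 23.8% in disease library 4, but 8.19 to 16.0% in the others, so the libraries with the lowest member levels also hold most of these. Timd4 was detected in 0 to 1.9% of such barcodes. At the other end, barcodes with 200 or more C1q UMIs were not the richest everywhere. In disease library 4 they carried Lyve1 in 13.1%, Cd163 in 14.4% and Cbr2 in 24.9%, against 35.4, 38.6 and 52.9% of barcodes with 50 to 99 C1q UMIs. In disease library 5 the shares were also lower, 24.7, 23.3 and 41.3% against 34.4, 37.4 and 60.1%. In disease library 3 they were higher, 48.5, 48.5 and 83.8% against 30.9, 41.4 and 64.2%. The controls were divided: control library 1 gave 23.6, 16.6 and 46.3% against 21.9, 33.9 and 58.8%, and control library 2, with 20 barcodes of 200 or more, gave 55, 45 and 95% against 30.1, 37.0 and 71.9%. These shares were not tested.

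The genes most like the members were sought by a fixed ranking: thinned C1q barcodes with at least 3 members were set against those with none, and genes were ordered by the smallest log2 ratio of CPM plus 1 over the 5 libraries, or by the highest ratio at the opposite end. The first 10 were Fcna, Chp2, Ccl24, Ltc4s, Ms4a4a, Pf4, Fxyd2, Bank1, Npl and Clec10a. Fcna, a ficolin that recognises sugars, had a smallest ratio of 5.22, Ccl24, an eosinophil chemokine, 4.21, and Ltc4s, a leukotriene synthase, 4.13. The platelet chemokine gene Pf4 was at 2458 CPM with the members and 126 CPM without. With at least 10 C1q UMIs Ednrb, Colec12 and Gas6 entered the first 10, and Pf4, Npl and Clec10a left it. At the opposite end stood Ass1, Mfap4, AA467197, Dpep1 and Ackr3. Of these 5, only Ass1, an arginine-synthesis enzyme, stayed in the last 5 with at least 10 C1q UMIs, where Itgax, Mmp12, Procr and Mmp14 joined it. The side without members was mixed. Of its 553, 39, 77, 729 and 192 barcodes, in library order, 97, 15, 18, 180 and 56 met no other lineage's gate. The part of other lineages in these genes was not tested. The members' own counts made this division, so the ratios are descriptions without a test.

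To relate the members to the monocyte-derived state, C1q barcodes were divided by detection of Ccr2 after thinning, which uses no member. Ccr2 was detected in 106 and 34 barcodes of the controls (6.56 and 7.89%) and in 33, 204 and 84 of disease (5.55, 11.4 and 10.5%). Fibroblast-marked barcodes gave 0.0561 to 0.445%. In Ccr2 barcodes all 8 members were lower, each in 5 of 5 libraries. Folr2 was at 137 against 384 CPM in control library 1, 187 against 588 CPM in control library 2, 72.5 against 758 CPM in disease library 3, 34.8 against 308 CPM in disease library 4 and 52.6 against 542 CPM in disease library 5. Lyve1 was at 61.9 against 200 CPM and 182 against 435 CPM in the controls, and at 68.3 against 480, 29.4 against 219 and 26.3 against 416 CPM in disease. For both genes no Ccr2 value reached a value without Ccr2.

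With the library as block, Folr2 fell by 2.52 on the log2 scale (SE 0.22; adjusted p 1.22e-07 by edgeR) and Lyve1 by 2.48 (SE 0.24; adjusted p 2.98e-07). Vsig4 fell by 2.78 (SE 0.50), on 8 UMIs in all Ccr2 barcodes. Cbr2 fell by 1.73, Timd4 by 1.63, Cd163 by 1.59 and F13a1 by 1.33 on the log2 scale. The smallest fall was that of Mrc1, 0.61 (SE 0.11, edgeR adjusted p 4.74e-04). Vsig4 had 0 UMIs in the Ccr2 barcodes of 3 libraries and passed the low-count filter through the other barcodes, so its call is not counted. The other 7 members were all called, where 22.7% of all genes were called and 12.9% called lower. Ccr2 barcodes were deeper in 4 of 5 libraries (median 7561 to 9132 against 5778 to 6737 UMIs) and shallower in control library 2 (5026 against 6099 UMIs).

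**Figure D4:**
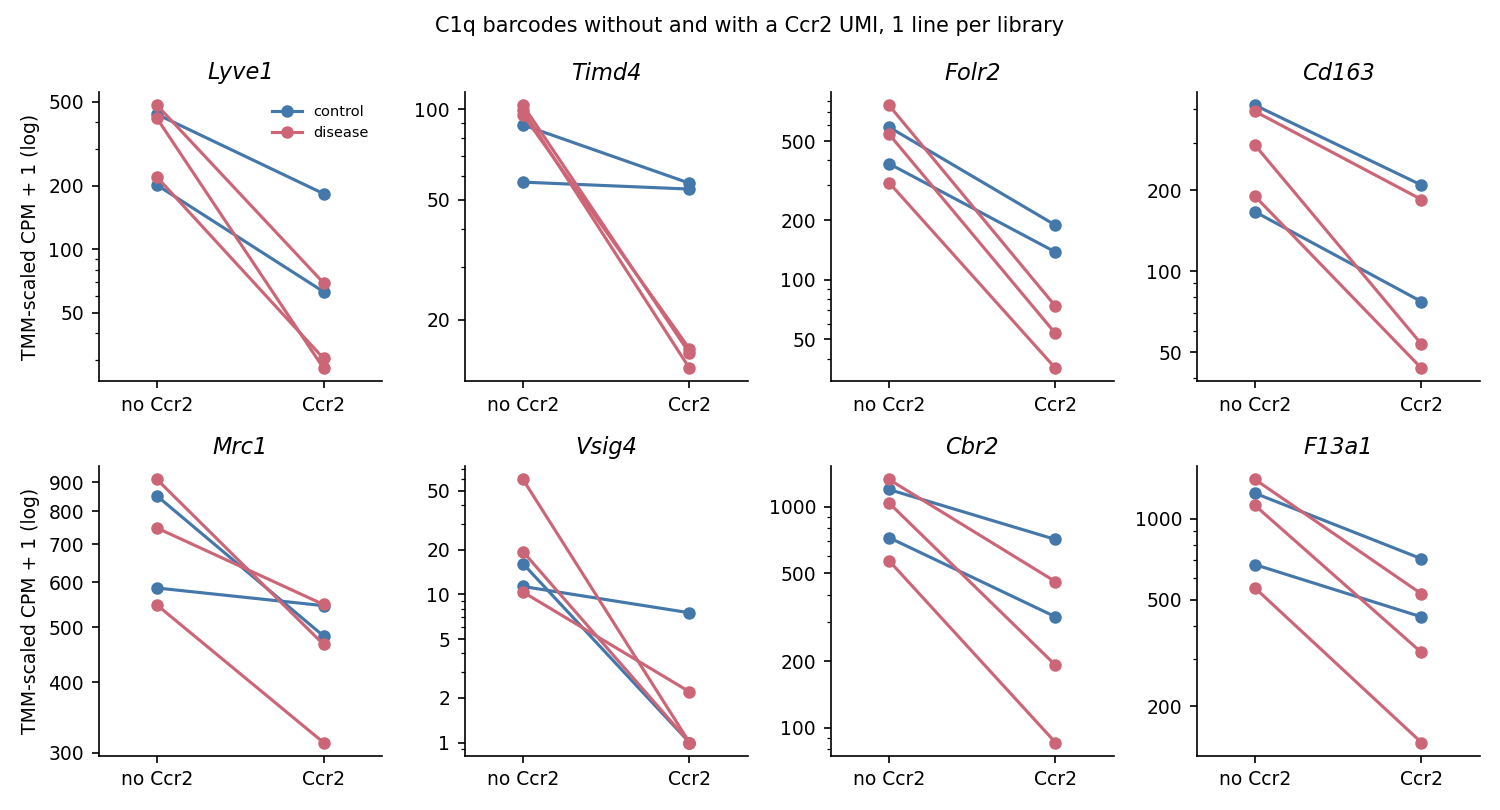
TMM-scaled CPM plus 1 (log axis) of each member in C1q barcodes without and with a Ccr2 UMI, 1 line per library, control in blue and disease in red. Every line falls; those of Timd4 end at 13 to 15 CPM in the 3 disease libraries and at 53.2 and 55.7 CPM in the controls.

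Other genes of the resident programme behaved alike. Of 17 tested, 14 were lower in Ccr2 barcodes, among them Fcna (log2 fold change -3.01), Gas6 (-1.99), Ccl24 (-1.59), Stab1 (-1.53) and Pf4 (-1.33), with a median of -1.30 against -0.05 over all genes. The fractalkine receptor gene Cx3cr1 was higher (0.61). Other scavenger receptors were divided, with 4 of 15 lower and 3 higher. Marco (-4.17), Colec12 (-2.86), Mertk (-0.65) and Cd36 (-0.63) fell, while Havcr2 (0.86), Cd14 (0.70) and Axl (0.37) rose, and Msr1 was at -0.17. Of haem and iron genes, the transferrin receptor Tfrc, the biliverdin reductase Blvrb (-0.61) and transferrin, Trf (-0.61), fell, and the haem oxygenase Hmox1 (0.71) and ferritin heavy chain Fth1 (0.46) rose, of 10 tested. Among 12 regulators, Maf fell by 0.96 and Tcf4 by 0.90 on the log2 scale, Id3, Klf4 and Mef2c were also lower, and Irf8 (0.55) and Spi1 (0.34) were higher. Of the monocyte-derived genes, Chil3 (3.75), Ly6c2 (2.98) and Il1b (1.68) were higher. With at least 10 C1q UMIs 16 of 17 resident programme genes, 3 of 15 scavenger receptors and 6 of 12 regulators were lower, and 1, 4 and 1 were higher. Over all genes 5.93% were then called lower and 8.13% higher, and 9.77% were called higher in the larger set.

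The fall with Ccr2 differed between genotypes. Timd4 was at 53.2 CPM in Ccr2 barcodes and 56.2 CPM in the others in control library 1, and at 55.7 and 87.6 CPM in control library 2. In disease libraries 3, 4 and 5 it was at 12.8 against 98.3, 15.0 against 94.8 and 14.5 against 102 CPM. The 3 disease libraries were thus lower in their Ccr2 barcodes than both controls, and not lower in the rest. Thinned shares of Ccr2 barcodes with Timd4 were 5.66 and 17.6% in the controls and 3.03, 2.45 and 4.76% in disease. Without barcodes that met another lineage's gate they were 2.0 and 20.7% against 0, 5.0 and 7.02%, so control library 1 then lay below 2 disease libraries. A term for split by genotype gave a log2 difference of -2.49 for Timd4 (SE 0.34, edgeR adjusted p 3.59e-04), -1.73 for Folr2 (SE 0.24, adjusted p 3.95e-04) and -1.72 for Lyve1 (SE 0.31, adjusted p 0.00608). Cbr2 (-1.28) and F13a1 (-1.01) also passed, at edgeR adjusted p 0.0233 and 0.0244. Cd163 (-0.88) and Mrc1 (-0.31) did not. Vsig4, with 0 UMIs in the Ccr2 barcodes of control library 2 and disease libraries 3 and 5, did not pass either, and its fitted value changed sign in 3 of 9 alternatives. So 5 of 8 members were called, each with a deeper fall in disease, where 19 of 10894 genes (0.174%) were called and 0.101% called lower. Of the resident programme, Ccl24 (-1.74) and Pf4 (-1.11) were called as well.

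Timd4 in Ccr2 barcodes rested on 49, 11, 3, 25 and 11 UMIs in 15, 10, 1, 15 and 6 barcodes of the libraries in order. Within the controls alone 5 of 8 members were lower in Ccr2 barcodes (6.79% of genes called lower), and Timd4 was not called (log2 fold change -0.22, edgeR adjusted p 0.748). Within disease all members other than Vsig4 were called lower (8.59% of genes called lower), with Timd4 at -2.75. Vsig4 had 2 UMIs there and passed the low-count filter through the other barcodes, so its call is not counted. Without control library 1, which leaves 1 control library, 2 of 8 members were called (0.0427% of genes called lower). The log2 difference was then -2.07 for Timd4 (edgeR adjusted p 0.260), -1.49 for Cbr2 (0.0705) and -0.90 for F13a1 (0.387). With at least 10 C1q UMIs 3 of 8 were called, Timd4, Folr2 and Lyve1 (0.0577% of genes called lower). Without C1q barcodes that met another lineage's gate 4 of 8 were called (0.147% of genes called lower), and Timd4 was at -1.47 with an edgeR adjusted p of 0.285. Folr2 and Lyve1 were called in all 9 alternatives run.

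Cxcl9, a chemokine induced by interferon-gamma, gave a second division that used no member. It was detected in 151 C1q barcodes of control library 1 and in 28, 759 and 159 of the disease libraries, or 9.35, 4.71, 42.3 and 19.9%. Control library 2 had 9 and was left out. Blood endothelial barcodes had Cxcl9 in 17.0 to 39.9% and fibroblast barcodes in 0.154 to 8.07%, and the part of free RNA was not tested. F13a1 was at 131 against 735 CPM in control library 1, and at 351 against 1447, 182 against 835 and 238 against 1315 CPM in disease. Lyve1 was at 39.5 against 213 CPM in control library 1, and at 90.3 against 492, 58.8 against 336 and 39.1 against 488 CPM in disease. The levels with and without Cxcl9 did not overlap for either gene.

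All 8 members were lower with Cxcl9 in 4 of 4 libraries. Those other than Vsig4 were all called, where 21% of all genes were called and 10.8% called lower. Lyve1 fell by 2.76 on the log2 scale (SE 0.19, edgeR adjusted p 1.46e-06), F13a1 by 2.30 (SE 0.12, edgeR adjusted p 4.35e-07) and Mrc1 by 1.09. Cbr2 fell by 2.22, Cd163 by 2.11 and Folr2 by 1.82. Vsig4, with 0 to 10 UMIs in the Cxcl9 barcodes of a library, fell by 2.79. It passed the low-count filter through the other barcodes, so its call is not counted. Timd4 was the least affected, at 36.6 against 58.8, 70.9 against 96.5, 78.0 against 99.2 and 52.9 against 106 CPM. It fell by 0.62 on the log2 scale (SE 0.15; adjusted p 0.00816 by edgeR), and the adjusted p was 0.0598 without disease library 5. The resident programme showed 16 of 18 genes lower, and Maf fell by 1.52. Cxcl9 barcodes were deeper in all 4 libraries (median 8617 to 10430 against 5604 to 6327 UMIs).

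**Figure D5:**
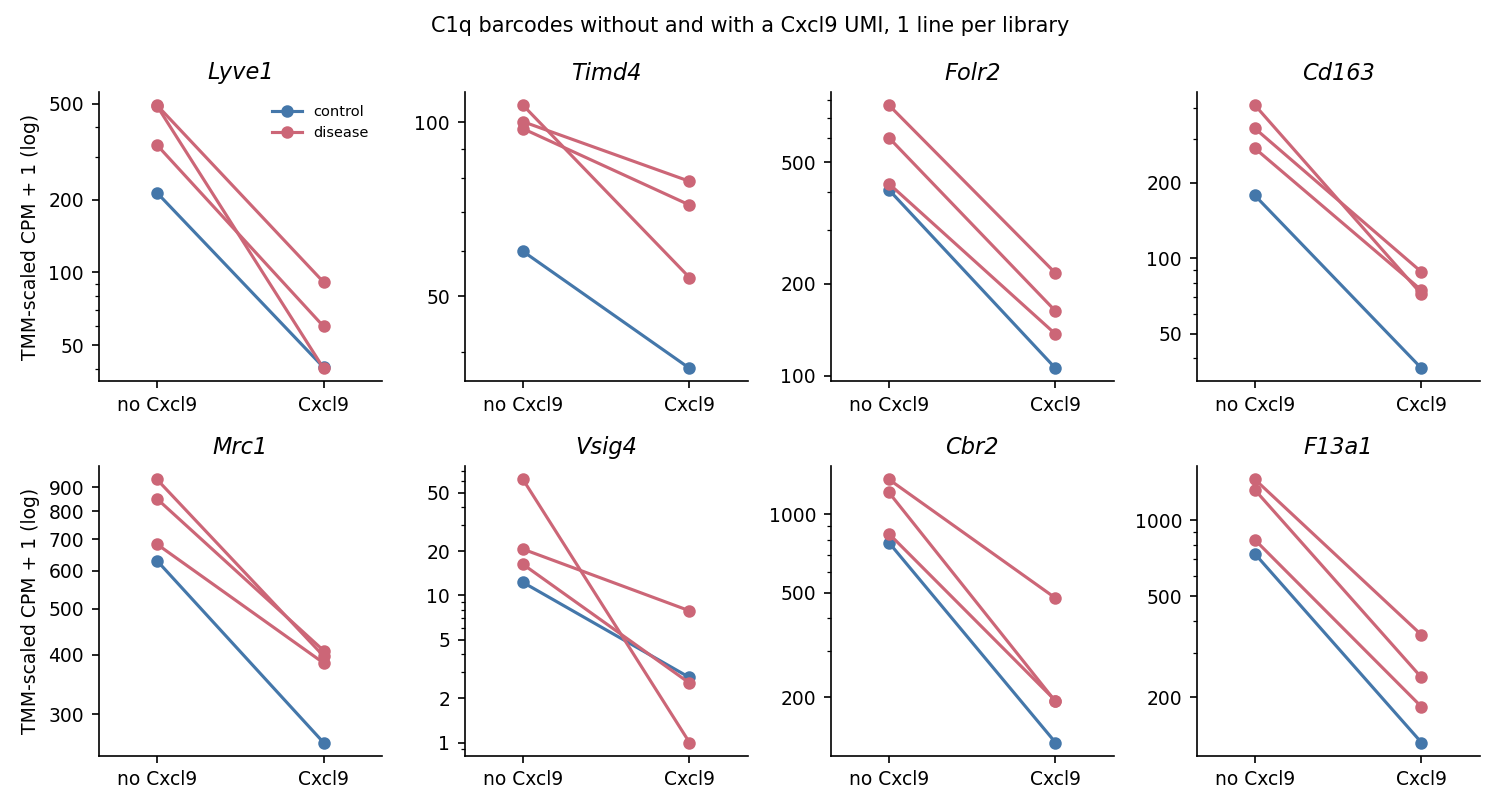
TMM-scaled CPM plus 1 (log axis) of each member in C1q barcodes without and with a Cxcl9 UMI, 1 line per library for control 1 (blue) and disease 3, 4 and 5 (red). Every line falls, steeply for Lyve1 (log2 fold change -2.76) and least for Timd4 (-0.62).

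The members were also read against MHC class II, the antigen-presenting genes that divide cardiac macrophages. C1q barcodes above the library's median of H2-Aa, H2-Ab1, H2-Eb1 and Cd74 UMIs were set against the rest. Vsig4 fell by 2.16 on the log2 scale, Lyve1 by 1.33, F13a1 by 0.69 and Folr2 by 0.55. So 4 of 8 members were called, where 40.6% of all genes were called and 20.9% called lower. Vsig4 was at 0 to 18.6 CPM on the side high in MHC class II, against 14.1 to 88.5 CPM on the other. Lyve1 was at 172 against 216 and 236 against 600 CPM in the controls, and at 292 against 625, 99.3 against 368 and 160 against 629 CPM in disease. In control library 1 Folr2 (407 against 344 CPM) and F13a1 (738 against 609 CPM) were higher on the side high in MHC class II, and in the other 4 libraries both were lower there. Folr2 was not called without control library 2 (edgeR adjusted p 0.0573) or without disease library 5 (0.0708). Timd4 (-0.13), Mrc1 (-0.04), Cd163 (-0.27) and Cbr2 (-0.41) did not pass. The side low in MHC class II had a median of 5 C1q UMIs in control library 1 and 17 in disease library 4, against 72 to 92 in the others. With at least 10 C1q UMIs 8 of 8 members were called lower, where 11% of all genes were called lower.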

How the data were processed

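The authors deposited, for each library, a matrix of raw UMI counts of genes by barcodes. Per the file headers it was written by Cell Ranger 3.1.0. The submitters' processing notes name Cell Ranger 3, Seurat 3 and the builds mm10 and GRCh38 without a role. The counting annotation is not given in the sources used here. Gene positions are from GENCODE M21 (GRCm38). Barcodes were kept from 500 UMIs and 200 genes upward, with a mitochondrial share of 10% or less, and doublets were called with Scrublet in scanpy 1.11.5 (seed 7, 0.8% per 1000 barcodes). Lineages other than C1q barcodes needed 3 detected markers, or 2 lymphatic ones, from lists without members. Apart from the lymphatic gate, a barcode met only the gate with the largest share of its markers detected, and none on a tie. A free-RNA correction was not made. Levels in 1 further gate, and the count over the monocyte-derived list, are not reported here.

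UMIs were summed per library, or per library and part of its barcodes, and compared by edgeR (version 4.0.16, R 4.3.3; TMM, filterByExpr, quasi-likelihood F test, Benjamini-Hochberg over all genes, threshold 0.05). All 8 members passed the low-count filter in each of these fits. DESeq2 1.42.0 was an alternative. Fits that divide barcodes had the library as block. The Cxcl9 fit left out control library 2, with fewer than 20 Cxcl9 barcodes, and the lymphatic fit kept all 5 libraries. Disease library 3 was also left out of 2 Cxcl9 alternatives. It had 19 Cxcl9 barcodes with at least 10 C1q UMIs and 13 without barcodes meeting another gate. An SE is the size of the fitted log2 change divided by the root of its F statistic. The unit is the library, and since mice were pooled, p-values between genotypes measure the spread between libraries, which may be technical. In fits with the library as block, p-values measure how the difference between parts of the barcodes varies over libraries. C1q sums held 2803854 to 15054484 UMIs. The test code was checked on simulated data. Genes other than members were named from lists of resident programme, scavenger, haem and iron, regulator and monocyte-derived genes, and by the likeness ranking (at least 50 CPM). The members and lists were chosen with earlier results of these data known. Sepp1 of the resident list was not among the features, which hold it as Selenop.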

Additional observations from a re-analysis of the deposited data

Results flagged for a closer look

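The change of a gene from C1q barcodes without to those with Ccr2 differed between genotypes, by the interaction term of the edgeR fit, for 5 members and 2 other genes of the resident programme. Each value is the log2 change in disease minus that in the controls. It was -2.49 for Timd4 (edgeR adjusted p 3.59e-04), -1.74 for Ccl24 (0.00273), -1.73 for Folr2 (3.95e-04), -1.72 for Lyve1 (0.00608), -1.28 for Cbr2 (0.0233), -1.11 for Pf4 (0.00398) and -1.01 for F13a1 (0.0244). The mean log2 ratio over libraries was -0.37 in the controls and -2.81 in disease for Timd4, and -1.57 and -3.30 for Folr2. Without control library 1 Timd4, Cbr2 and F13a1 were not called. Ccr2 barcodes were shallower than the rest in control library 2 and deeper in the other 4 libraries, and the part of depth was not tested.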

How the results depend on the processing

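No paired analysis was possible because control and disease libraries share no replicate number. With Ccr2 the 7 members other than Vsig4 kept their calls in all alternatives run, and Lyve1 and Mrc1 kept theirs in the lymphatic comparison. With Cxcl9 Timd4 lost its call in 1 alternative. Member-wise genotype calls stayed absent in all alternatives. The alternatives with 10 C1q UMIs for divided barcodes, with 2 Ccr2 UMIs, with a GC trend and with genotypes apart were chosen after seeing the data. The lymphatic test between genotypes and its alternatives were not run.

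The share of C1q barcodes, disease minus control, was 0.309 percentage points, -0.0872 with all deposited barcodes, and -5.16 to 5.78 when a library was left out, below 0 without control library 2 or disease library 4. Leaving out a library moved the difference in thinned share over -9.85 to 7.62 points for Lyve1, -0.0983 to 5.79 for Timd4, -8.90 to 4.49 for Folr2, -12.8 to 6.36 for Cd163, -12.8 to 8.39 for Mrc1, -0.00925 to 2.32 for Vsig4, -21.8 to 3.32 for Cbr2, -18.3 to 8.26 for F13a1 and -12.0 to 7.67 for any of Timd4, Lyve1 and Folr2.

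Between genotypes in C1q barcodes, leaving out a library gave 63 to 697 called genes, with 63 without disease library 5. Log2 fold changes then ran from -0.29 to 0.88 for Lyve1, -0.27 to 0.47 for Folr2, -0.57 to 0.80 for Cd163, -0.24 to 0.35 for Mrc1, -0.34 to 0.44 for Cbr2 and -0.33 to 0.61 for F13a1. With the GC trend removed, Lyve1 was at -0.10, Folr2 at -0.10, Mrc1 at -0.23 and F13a1 at -0.19. Cd163 was at 0.013 with 10 C1q UMIs and 0.11 without barcodes meeting another gate. Cbr2, at -0.00, was at 0.019 with RLE factors, 0.021 with every gene and 0.019 with DESeq2, and at 0.13 without barcodes meeting another gate.

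Over all kept barcodes DESeq2 called 1715 genes, and leaving out a library gave 121 to 1243. With the GC trend removed, Lyve1 was at -0.044, Folr2 at -0.031, Cd163 at -0.13, Mrc1 at -0.10 and F13a1 at -0.079. Leaving out a library gave -0.042 to 0.51 for Folr2, -0.088 to 0.49 for Mrc1 and -0.081 to 0.31 for Cbr2.

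For Ccr2, 934 genes were called without barcodes meeting another gate and 1461 with 10 C1q UMIs. For Cxcl9 leaving out a library gave 1646 to 2795. For MHC class II the same 2 settings called 2034 and 2956 genes and 8 and 8 members, leaving out a library gave 3 to 6 members, and Mrc1 was at 0.0018 with RLE factors and at -0.23 to 0.053 when a library was left out.

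For Ccr2 by genotype, 10 C1q UMIs gave 3 members and 7 genes, and leaving out a library 2 to 6 members and 8 to 51 genes. Mrc1 was at 0.0020 without barcodes meeting another gate and -0.77 to 0.12 when a library was left out. Vsig4 was at 3.59 without barcodes meeting another gate, 5.44 with 2 Ccr2 UMIs and -8.41 to 4.24 when a library was left out. The cause of these changes was not tested. The 634 UMIs of Vsig4 and the 33 to 204 Ccr2 barcodes per library limit the precision of results that rest on them.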
